A study of Mus musculus with 12 samples.

Results

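Srebf2, Insig1, Hmgcs1, Idi1, Fdft1, Sqle, Lss and Cyp51 are 8 genes of the mevalonate and cholesterol synthesis pathway and of its control. They were taken by name from the 47729 genes of the deposited tables, and all 8 were among the 18942 genes with enough reads to test. The set was named for both synthesis and uptake of cholesterol, but it holds 6 synthesis enzymes and 2 regulators and no receptor, so the lipoprotein receptors were read from a separate list. RNA sequencing had been run on 4 fat depots of male wild type C57BL/6J mice given a high-fat diet, with 3 libraries per depot: interscapular brown fat (BAT) and epididymal (EWAT), inguinal (IWAT) and retroperitoneal (RWAT) white fat. The design gives 6 to 10 weeks for the mice without saying whether this is an age or a feeding period. Every depot had been surgically denervated and no innervated fat was analysed here. The effect of cutting the nerves therefore cannot be read from these groups. The labels separate the groups by depot only. A difference that they do not name, such as animal or batch, could not be told apart from depot. The labels do not say whether the 3 libraries of a depot came from 3 animals, and p-values therefore measure the spread between libraries, which may be partly technical.

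Cells make cholesterol from acetyl-CoA through mevalonate, isoprenoids, squalene and lanosterol. When sterol in the endoplasmic reticulum falls, the transcription factor SREBP-2, encoded by Srebf2, is carried to the Golgi, cut free and sent to the nucleus, where it raises the genes of sterol synthesis and uptake. INSIG1 holds SREBP and its escort SCAP back in the endoplasmic reticulum while sterol is plentiful. In adipocytes much of the free cholesterol lies in the lipid droplet surface and the plasma membrane, and adipocytes take up part of it from lipoproteins.

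The promoters were searched for 2 short motifs. RefSeq (GRCm38.p6) supplied the 250 bases before the start of 6 of the 8 genes, and Sqle and Fdft1 were not in that table. The core of a sterol regulatory element, the site bound by SREBP, was searched as TCACCNCA on both strands, a form chosen after the sequences had been seen. It occurred in 3 of the 6 promoters, those of Srebf2, Hmgcs1 and Cyp51, against 3.61% of the 32851 promoters in the table. Insig1, Idi1 and Lss had no match. Because of how the form was chosen, this contrast cannot serve as a test. The box CCAAT, the site of the factor NF-Y, occurred on either strand in 6 of 6, against 33.8% of all promoters. The only match in Cyp51 lay 29 bases before the RefSeq start, and those in Idi1 lay 45 and 14 bases before it. By the GENCODE starts these lie inside the genes, so the Cyp51 stretch below has no marked CCAAT. The match to the sterol element lay 162 bases before the RefSeq start in Srebf2, 137 in Hmgcs1 and 88 in Cyp51, each on the sense strand. Such a match is a description of the letters and not a measured binding site. The stretches below run 5′ to 3′ on the gene's strand and end before both the RefSeq and the GENCODE start. These 3 are shown because each holds a match, TCACCCCA in Srebf2 and Hmgcs1 and TCACCTCA in Cyp51. Capitals mark the 2 motifs.
Srebf2, chr15:82147019-82147180, plus strand: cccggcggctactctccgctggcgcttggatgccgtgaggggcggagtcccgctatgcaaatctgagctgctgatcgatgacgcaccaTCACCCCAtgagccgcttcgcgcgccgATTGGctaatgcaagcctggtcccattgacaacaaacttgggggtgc
Hmgcs1, chr13:119690101-119690350, plus strand: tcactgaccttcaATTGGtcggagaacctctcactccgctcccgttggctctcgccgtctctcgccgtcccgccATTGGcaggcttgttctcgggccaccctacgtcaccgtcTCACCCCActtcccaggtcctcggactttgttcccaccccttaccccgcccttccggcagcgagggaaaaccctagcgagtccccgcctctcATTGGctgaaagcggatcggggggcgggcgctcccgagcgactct
Cyp51, chr5:4104747-4104947, minus strand: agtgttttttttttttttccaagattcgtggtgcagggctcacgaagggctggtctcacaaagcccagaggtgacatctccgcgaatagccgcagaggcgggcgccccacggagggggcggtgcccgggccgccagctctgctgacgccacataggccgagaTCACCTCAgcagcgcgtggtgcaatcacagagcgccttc

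Levels are given on 2 scales. CPM, the read count scaled to library size with factors by the trimmed mean of M-values (TMM), was computed from the deposited expected counts and compares 1 gene between libraries. TPM, which the authors deposited, is corrected for transcript length as well and compares genes within 1 library. Fold changes and tests between libraries use CPM, and TPM values set side by side across libraries are descriptions only, because genes shorter than 400 bases, led by the 7S RNAs Rn7s1 and Rn7s2, took from 20.0% of all TPM in EWAT 1 to 63.7% in EWAT 2. The median TPM per CPM of the 8 genes accordingly ran from 0.232 in EWAT 2 to 0.571 in IWAT 2. The libraries held 12933516 to 21106554 counts in all. Ucp1, a marker of brown fat, did not follow the depot label in every library. It was at 792.09 TPM in BAT 1 but at 0.21 in BAT 2 and 1.02 in BAT 3, within the 0.02 to 8.68 of the white libraries. Over 9 brown adipocyte markers the mean log2 CPM was 6.13, 0.70 and 2.00 in BAT 1, 2 and 3. The white libraries ran from -1.57 to 3.02. For BAT against white 9 of these 9 markers were higher in BAT, 1 of them past the threshold. Whether a label was wrong was not tested, and all were kept. Skeletal muscle genes were high in RWAT 3, RWAT 1 and BAT 1, with a mean log2 CPM over 8 genes of 8.24, 5.70 and 3.93, against at most -0.07 elsewhere. None of the 12 libraries was a copy of another.

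On the length-corrected scale Hmgcs1 and Insig1 were the 2 most abundant of the 8 transcripts in 12 of 12 libraries, each of them first in 6. Together they made 47.5% (EWAT 1) to 79.7% (IWAT 1) of the summed TPM of the 8 genes. The median TPM over the 12 libraries was 86.1 for Hmgcs1 and 77.8 for Insig1. It was 13.9 for Idi1, 12.9 for Cyp51, 12.6 for Fdft1, 12.5 for Srebf2, 11.2 for Lss and 7.53 for Sqle. The last 6 are close to one another and their ranges over libraries overlap, so no order among them can be read. Every gene was counted well: the lowest expected count of any of the 8 in any library was 179.16, for Sqle. The uncertainty of assigning reads, given in the deposited files as a posterior standard deviation, was 0 for Srebf2 and Hmgcs1 and largest for Idi1, at 1.21% to 3.05% of its count.

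Srebf2 (ENSMUSG00000022463, chr15:82147181-82205379, plus strand; gene positions are those of GENCODE M21 on GRCm38) encodes the precursor of SREBP-2. Its level was 48.5, 80.4 and 40.4 CPM in BAT 1, 2 and 3, and 88.5, 39.2 and 90.6 CPM in EWAT 1, 2 and 3. In IWAT it was at 55.6, 40.0 and 45.0 CPM, and in RWAT at 57.1, 68.8 and 37.8 CPM. Srebf2 was the least variable of the 8 genes across the libraries, with 2.39 times between the lowest and the highest, and no depot stood apart from another. BAT 2, EWAT 1, EWAT 3 and RWAT 2 were its 4 highest libraries.

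Insig1 (ENSMUSG00000045294, chr5:28071363-28078662, plus strand), the retention protein of the SREBP pathway and itself a target of it, had levels of 126, 217 and 130.1 CPM in the BAT libraries, and of 115, 122 and 268 CPM in EWAT. In IWAT it was at 529, 113 and 155 CPM, and in RWAT at 115, 139 and 131 CPM. IWAT 1 stood alone at the top. IWAT 2 was the lowest of all 12 by a narrow margin, at 113.5 CPM against 114.5 in EWAT 1. On this scale the highest and the lowest library thus came from the same depot, with a mean of 266 ± 229 CPM (SD, n = 3). On the TPM scale the lowest was EWAT 2, at 34.8, with IWAT 2 at 79.15. RWAT was the most even depot, at 128 ± 12.1 CPM (SD, n = 3).

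Hmgcs1 (ENSMUSG00000093930, chr13:119690379-119708260, plus strand) encodes the cytosolic HMG-CoA synthase, an early step of the mevalonate pathway. Its levels were 182, 203 and 304 CPM in the BAT libraries, and 108, 190 and 262 CPM in EWAT. In IWAT it was at 603, 304 and 279 CPM, and in RWAT at 246, 172 and 163 CPM. All 3 IWAT libraries lay above all EWAT and all RWAT libraries, whereas 1 BAT library (BAT 3) reached into the IWAT range. The means were 395 ± 180 CPM in IWAT and 187 ± 76.9 CPM in EWAT (SD, n = 3 each).

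Idi1 (ENSMUSG00000058258, chr13:8885501-8892451, plus strand) interconverts the isoprenoid building blocks isopentenyl and dimethylallyl diphosphate. It ranged from 14.7 CPM in BAT 3 to 58.4 in IWAT 1, and every depot overlapped every other. Fdft1 (ENSMUSG00000021273, chr14:63145150-63179578, minus strand), squalene synthase, commits the pathway to sterols. It was at 24.8, 27.6 and 29.3 CPM in BAT, 27.6, 23.2 and 36.7 in EWAT, 51.3, 25.3 and 31.1 in IWAT and 21.2, 23.2 and 20.5 in RWAT. The RWAT libraries therefore lay below all IWAT libraries and below all BAT libraries. Lss (ENSMUSG00000033105, chr10:76531588-76557138, plus strand), lanosterol synthase, ranged from 16.7 CPM in RWAT 1 to 49.5 in IWAT 1 and overlapped between all depots.

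Sqle (ENSMUSG00000022351, chr15:59315077-59331192, plus strand) encodes squalene epoxidase, the oxygen-requiring step before lanosterol synthase. Its level was 15.0, 42.0 and 9.80 CPM in BAT, 42.8, 17.4 and 60.3 in EWAT, 26.2, 12.4 and 13.2 in IWAT and 22.1, 33.2 and 17.4 in RWAT. It varied most of the 8 genes, with 6.15 times between BAT 3 and EWAT 3, and 4.29 times between the BAT libraries alone. Cyp51 (ENSMUSG00000001467, chr5:4081145-4104746, minus strand), lanosterol 14-alpha demethylase, was measured at 28.2, 99.3 and 16.9 CPM in the BAT libraries, and at 68.2, 38.9 and 97.2 CPM in EWAT. In IWAT it was at 38.3, 19.8 and 26.2 CPM, and in RWAT at 38.2, 61.8 and 27.6 CPM. All 3 IWAT libraries were below all EWAT libraries, by a narrow margin between IWAT 1 and EWAT 2.

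**Figure D1:**
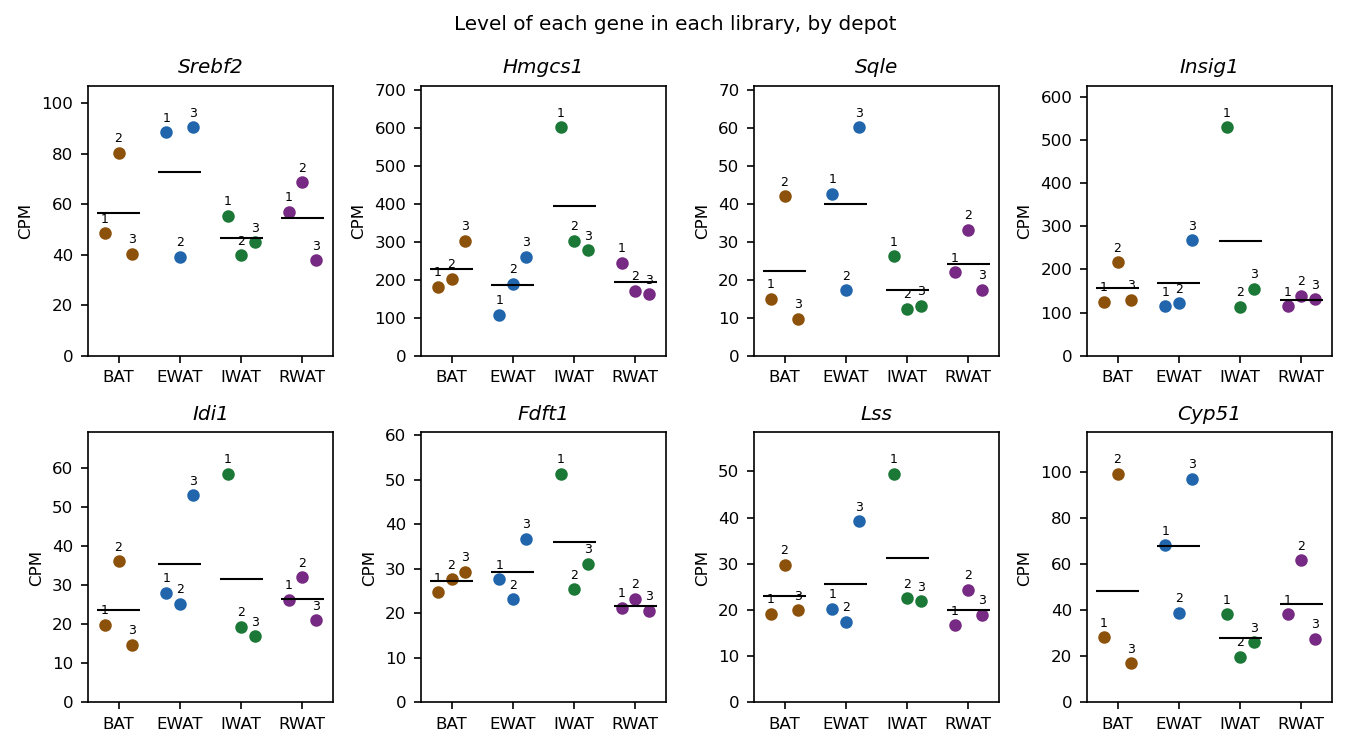
Level of each of the 8 genes in every library. Each panel is 1 gene, the vertical axis is CPM from 0 (its range differs between panels), the horizontal axis is the depot, a point is a library labelled with its replicate number and the bar is the mean of the 3. Hmgcs1 in IWAT runs from 279 to 603 CPM, above every EWAT and RWAT point, while Cyp51 in BAT runs from 16.9 to 99.3 CPM.

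Whether the depots differed was tested with edgeR's quasi-likelihood test in 1 model of all 12 libraries, with Benjamini-Hochberg adjustment over all 18942 genes and a threshold of 0.05. None of the 8 genes passed in the test among the 4 depots, in which 1.14% of all genes were called. Hmgcs1 came nearest (adjusted p = 0.218), followed by Fdft1 (adjusted p = 0.318). Hmgcs1 was the only one of the 8 with an unadjusted p below 0.05, a share beneath the 20.8% of all genes.

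None passed in any pair of depots. The background was 11.0% called for IWAT against EWAT, 0.143% for BAT against EWAT, 0.0264% for BAT against IWAT, 0.0211% for BAT against RWAT, 0.00528% for RWAT against EWAT and 0% for RWAT against IWAT. For brown fat against the mean of the 3 white depots it was 0.0528%, and the 8 genes differed there by between -0.39 (Idi1) and 0.15 (Cyp51) on the log2 scale, each with an adjusted p of 0.999. At an unadjusted p below 0.05 the test gave 1 of the 8 genes for IWAT against EWAT (Hmgcs1; 30.7% of all genes) and 2 for RWAT against IWAT (Hmgcs1 and Fdft1; 20.6%). It gave 0 for BAT against EWAT (9.95% of all genes), BAT against IWAT (13.2%), BAT against RWAT (4.72%), RWAT against EWAT (4.81%) and BAT against white (4.92%). With limma-voom the adjusted count was 0 in every comparison. It called 9.96% of all genes for IWAT against EWAT and 0% to 0.185% in the other comparisons.

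The 3 largest of these differences, none past the threshold, were between inguinal and epididymal fat, with Hmgcs1 on one side of 0 and Cyp51 and Sqle on the other. Hmgcs1 was higher in IWAT by 1.08 ± 0.38 on the log2 scale (SE; 95% interval 0.25 to 1.91; edgeR adjusted p = 0.083), in a comparison where 17.3% of all genes were higher without overlap. DESeq2, run as an alternative, put the same difference past the threshold (adjusted p = 0.0394) and called 20.0% of all genes. Without IWAT 1 the edgeR difference of Hmgcs1 was 0.64 (adjusted p = 0.291). Cyp51 differed by -1.28 ± 0.59 (95% interval -2.56 to 0.01; edgeR adjusted p = 0.165), where 15.1% of all genes were lower without overlap. Sqle differed by -1.22 ± 0.57 (95% interval -2.46 to 0.02; edgeR adjusted p = 0.171) and Srebf2 by -0.64 ± 0.35 (edgeR adjusted p = 0.248). Insig1, Fdft1 and Lss had smaller positive differences, of 0.66, 0.30 and 0.29, and Idi1 was at -0.17. The median of the 8 was 0.06, beside 0.02 for all genes, with 4 of 8 positive. Without IWAT 1 only Hmgcs1 stayed positive, 1 of 8, with Insig1 at -0.33, Lss at -0.21, Fdft1 at -0.05 and Idi1 at -0.97. These intervals leave room for changes of more than 2 log2 units in Cyp51 and Sqle, so equal levels were not shown.

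Between retroperitoneal and inguinal fat, Fdft1 differed by -0.73 ± 0.26 (95% interval -1.29 to -0.17; edgeR adjusted p = 0.165) and Hmgcs1 by -1.03 ± 0.38 (95% interval -1.86 to -0.20; edgeR adjusted p = 0.173). Both were lower in all 3 RWAT libraries than in all 3 IWAT libraries, which was true of 15.2% of all genes. Insig1 differed by -1.05 ± 0.52 (edgeR adjusted p = 0.277). Without IWAT 1 these differences were -0.38 for Fdft1, -0.59 for Hmgcs1 and -0.06 for Insig1. For BAT against RWAT only Fdft1 was without overlap, higher in BAT by 0.33 ± 0.25 (edgeR adjusted p = 0.999), as 4.15% of all genes were. For BAT against EWAT, BAT against IWAT and RWAT against EWAT no gene of the 8 was without overlap, where 5.49%, 8.37% and 3.97% of all genes were higher in that way and 5.15%, 7.91% and 3.78% lower. The same holds for higher in RWAT than in IWAT (11.0% of all genes) and lower in BAT than in RWAT (4.36%). The median difference of the 8 genes was -0.26 for BAT against EWAT, -0.41 for BAT against IWAT, 0.19 for BAT against RWAT, -0.42 for RWAT against EWAT and -0.45 for RWAT against IWAT, with medians of all genes within 0.02 of 0. These comparisons share libraries and are not independent of one another. Without IWAT 1 all 3 medians that involve inguinal fat changed sign, to 0.30 for BAT against IWAT, -0.55 for IWAT against EWAT and 0.15 for RWAT against IWAT.

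**Figure D2:**
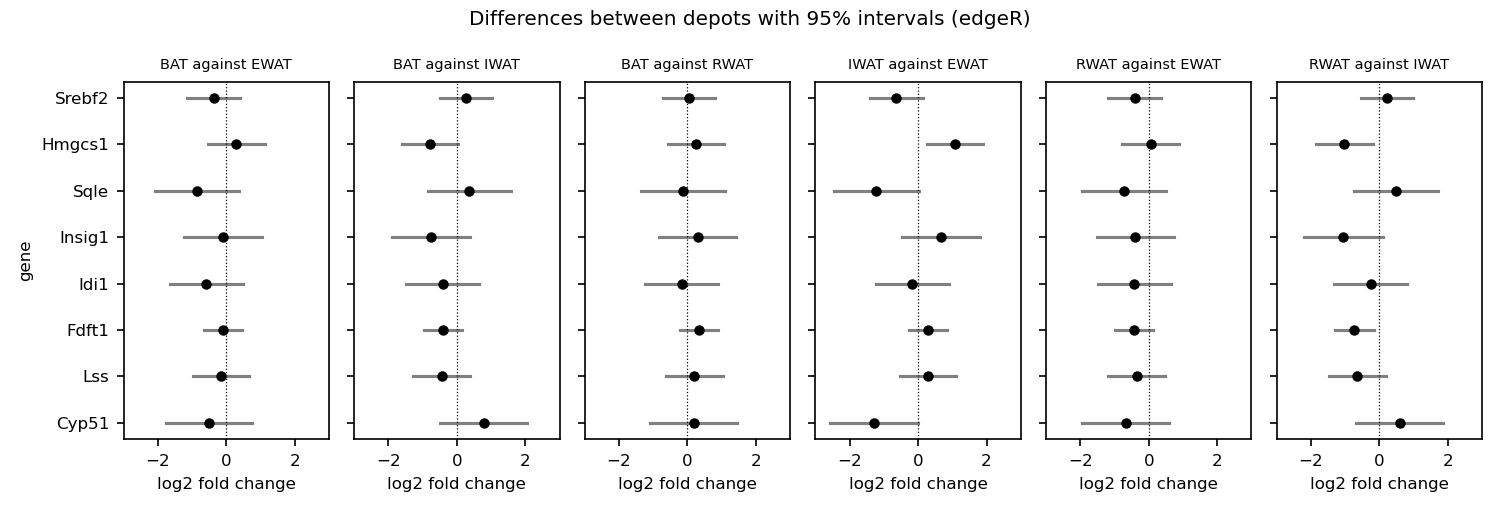
Differences of the 8 genes in the 6 pairs of depots. Each panel is a pair, the horizontal axis is the log2 fold change from edgeR, points are estimates and lines are 95% intervals. Hmgcs1 lies at 1.08 for IWAT against EWAT with an interval of 0.25 to 1.91, while the interval of Cyp51 reaches from -2.56 to 0.01.

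Within a library, the ratios of Hmgcs1 to Cyp51 and to Sqle were higher in every IWAT library than in every EWAT and RWAT library. The CPM of Hmgcs1 was 10.7 to 15.7 times those of Cyp51 in the 3 IWAT libraries, against 1.59 to 4.89 times in EWAT and 2.78 to 6.45 times in RWAT. Against Sqle the ratio was 21.1 to 24.5 in IWAT, 2.54 to 11.0 in EWAT and 5.17 to 11.2 in RWAT. BAT covered nearly the whole range, at 2.05 to 17.9 for Cyp51 and 4.84 to 31.0 for Sqle. These ratios were chosen after the values had been seen and have no test. For IWAT against EWAT the ratio to Cyp51 had to separate, since both genes were already without overlap there, in opposite directions. How many other gene pairs separate the depots in this way was not measured. They are ratios of read counts, not of molecules, since the genes differ in length.

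The genes did not all move together across the libraries, and their split was less sharp once depot means were subtracted. Over the 12 libraries the correlations of log2 CPM among Srebf2, Sqle and Cyp51 were 0.904 to 0.968, and those among Insig1, Lss and Fdft1 were 0.869 to 0.947. Between these 2 groups of 3 they were 0.166 to 0.528, and 0.469 to 0.807 after depot means were subtracted. Hmgcs1 was related to the first 3 at -0.316 to -0.248, and at 0.010 to 0.110 after depot means were subtracted. With Insig1, Lss and Fdft1 it was at 0.600 to 0.700. Idi1 belonged to neither group alone, at 0.681 to 0.822 with the first 3 and 0.584 to 0.816 with the other 3. After depot means were subtracted Idi1 was at 0.693 to 0.932 with the genes of both groups. These coefficients describe 12 libraries from 4 depots that differ in cell make-up and depth, and they carry no test.

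Srebf2, Sqle and Cyp51 were highest in the libraries where adipocyte markers were lowest. The same 4 libraries, BAT 2, EWAT 1, EWAT 3 and RWAT 2, were the 4 highest for Srebf2 (68.8 to 90.6 CPM against 37.8 to 57.1 in the other 8), for Sqle (33.2 to 60.3 against 9.80 to 26.2) and for Cyp51 (61.8 to 99.3 against 16.9 to 38.9). They were also the 4 highest on the TPM scale. These 4 libraries had the lowest mean log2 CPM over 12 adipocyte markers, at 6.79, 4.93, 7.64 and 6.82, while the other 8 lay between 8.34 and 10.3. Adipoq, the adiponectin gene and a defining adipocyte marker, was at 34.8 to 301 CPM in them and at 585 to 2323 CPM elsewhere. Of 7 cell cycle genes, 6 were highest in the same 4 libraries, with a mean log2 CPM of 6.04 to 6.63 against 2.44 to 5.92. Macrophage genes overlapped, at 7.70 to 8.88 against 6.07 to 8.45. In bulk tissue, fewer cells of a type and less RNA per cell cannot be told apart, and the part of cell make-up in these levels was not tested.

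Of all genes tested, 3.08% were highest and 5.56% lowest in exactly those 4 libraries. The 4 were picked out by their values, 1 or 2 from each of 3 depots, and are not groups of the study. The other 5 genes of the set overlapped between the 4 libraries and the rest. Among the 15 other sterol synthesis enzymes reported here, 2 had the same 4 libraries on top, the demethylation enzymes Msmo1 (43.4 to 86.8 CPM against 16.6 to 40.5) and Hsd17b7 (17.6 to 24.7 against 7.50 to 12.7). Among 10 uptake and trafficking genes the same held for Stard4, a cytosolic sterol carrier (31.3 to 44.0 CPM against 11.8 to 21.4). Vldlr, the very-low-density lipoprotein receptor of fat and muscle, was the reverse, at 16.9 to 31.7 CPM in the 4 and 55.6 to 153.7 in the other 8. The pattern was not limited to sterol genes. Of 11 fatty acid synthesis genes 2 were highest in the 4, Fads1 (83.6 to 123 CPM against 42.8 to 67.4) and Fads2 (11.2 to 18.8 against 3.71 to 7.19). Another 2 of the 11, Scd1 and Pnpla3, were lowest there. A fit without these 4 libraries keeps 1 EWAT library, which is assumed to vary like the other depots, and it called 0 of the 8 genes, as the fit of all 12 did. In it 7 of the 8 differences for IWAT against EWAT were positive, against 4 with all libraries, and their median was 0.49.

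**Figure D3:**
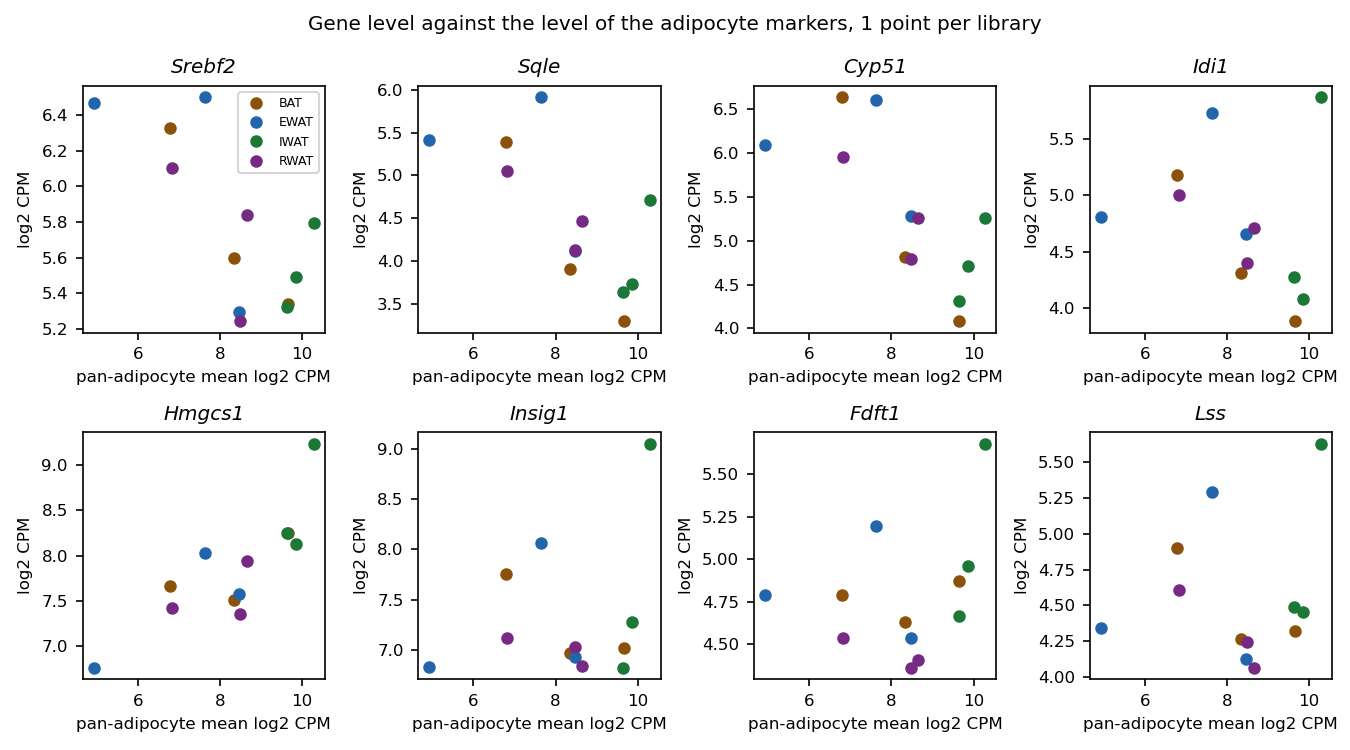
Level of each of the 8 genes against the adipocyte markers of the same library. Each panel is 1 gene, the horizontal axis is the mean log2 CPM of 12 adipocyte markers, the vertical axis is log2 CPM of the gene, and colours are depots. For Srebf2, Sqle and Cyp51 the 4 libraries at or below 7.64 on the horizontal axis are the highest points, while Hmgcs1 shows no such order.

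A second library pattern concerned IWAT 1 alone. It was the highest of all 12 libraries for Hmgcs1, Insig1, Idi1, Fdft1 and Lss, at 603, 529, 58.4, 51.3 and 49.5 CPM. On the TPM scale this held for Hmgcs1, Insig1 and Lss only. Idi1 was at 28.0 TPM against 30.6 in EWAT 3, and Fdft1 at 15.16 TPM against 15.42 in EWAT 1. The share of all genes that were highest in IWAT 1 was not measured. For Srebf2, Sqle and Cyp51 it was not among the 4 highest. The same library had the highest mean log2 CPM over 11 fatty acid synthesis genes, 9.21 against at most 7.79 elsewhere, and the lowest over the cell cycle genes, 2.44. It also had the highest mean of all 12 libraries over the adipocyte markers, 10.3, and the lowest over the macrophage markers, 6.07. Acaca, acetyl-CoA carboxylase, stood at 1586 CPM in IWAT 1 and at 86.2 to 549.9 CPM in the other 11 libraries. The part of cell make-up in the levels of this library was not tested.

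The rest of the pathway was read from 5 lists, of which 15, 10, 10, 12 and 11 genes are reported here, all of them tested. None of these passed in the test among the 4 depots, where 1.14% of all genes did. In it 3, 3, 5, 4 and 5 of them had an unadjusted p below 0.05, beside 20.8% of all genes. All 7 calls among them were made for IWAT against EWAT, the pair in which 11.0% of all genes were called, 5.47% higher and 5.52% lower in IWAT. Of the 15 other sterol synthesis enzymes 0 were called there and 4 had an unadjusted p below 0.05, beside 30.7% of all genes. The 3 with the smallest p among the 4 depots were Sc5d, the sterol desaturase of a late step, Msmo1 and Acat2, which makes acetoacetyl-CoA at the head of the pathway, with edgeR adjusted p of 0.108, 0.169 and 0.213. Between IWAT and EWAT, Sc5d differed by 1.42 ± 0.42 on the log2 scale (SE; edgeR adjusted p = 0.0507), Msmo1 by -1.30 ± 0.39 (adjusted p = 0.0537) and Acat2 by 1.08 ± 0.40 (adjusted p = 0.0973). The Sc5d libraries did not overlap, at 33.5, 47.0 and 59.2 CPM in EWAT and 220.3, 71.7 and 81.9 CPM in IWAT. The median of the 15 was -0.11, with 7 positive. The adipocyte markers also separated these 2 depots, at a mean log2 CPM of 4.93 to 8.47 in EWAT and 9.64 to 10.3 in IWAT, and so did the cell cycle genes, at 5.82 to 6.63 and 2.44 to 5.16. Their part in the 7 calls was not tested. For RWAT against EWAT 0 of the 15 were positive, against 48.2% of all genes, with a median of -0.29 beside -0.01. At the adjusted and the unadjusted p 0 of the 15 passed, where 0.00528% and 4.81% of all genes did. Their mean log2 CPM overlapped, at 4.25, 4.25 and 4.99 in EWAT 1, 2 and 3 and 4.34, 4.38 and 3.98 in RWAT. The 15 signs share these libraries and are not independent.

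Among 10 genes of SREBP processing and sterol sensing, Srebf1 was called, the gene of the SREBP forms that act mainly on fatty acid synthesis. It rose by 1.76 ± 0.35 on the log2 scale (SE; edgeR adjusted p = 0.0187), from 73.2, 84.0 and 98.5 CPM in EWAT to 394, 260 and 212 CPM in IWAT, while its partner Srebf2 differed by -0.64 without passing. Among 10 uptake and trafficking genes, Vldlr rose by 1.93 ± 0.51 (edgeR adjusted p = 0.0388) and Mylip, whose product marks lipoprotein receptors for degradation, by 0.92 ± 0.26 (edgeR adjusted p = 0.0458). The median of these 10 was -0.58 with 3 of 10 positive, so the 2 calls ran against most of the list. Vldlr stood at 16.9, 55.6 and 31.6 CPM in EWAT and at 154, 113 and 128 CPM in IWAT.

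Among 12 genes of cholesterol efflux and storage, Soat1, which esterifies cholesterol for storage and is abundant in macrophages, fell by 2.00 ± 0.47 (edgeR adjusted p = 0.0273), from 364, 211 and 392 CPM in EWAT to 33.2, 69.4 and 139 CPM in IWAT. Ch25h, which makes 25-hydroxycholesterol, an oxysterol that blocks SREBP processing, fell by 4.42 ± 0.90 (edgeR adjusted p = 0.0189). It was at 1.86 to 16.8 CPM in EWAT and 0.131 to 0.588 CPM in IWAT. The IWAT values lie near the floor and the EWAT libraries spread 9.03 times, so the size of its fall is imprecise. Macrophage markers moved with Soat1 and Ch25h, at a mean log2 CPM of 8.13 to 8.88 in EWAT and 6.07 to 7.52 in IWAT. The part of these markers in the result was not tested. Among 11 fatty acid synthesis genes, Acaca rose by 2.82 ± 0.75 (edgeR adjusted p = 0.0388) and Me1, malic enzyme, a source of NADPH, by 2.50 ± 0.71 (edgeR adjusted p = 0.0455), and the list's median was 2.62. Without IWAT 1 these differences were 1.40 for Acaca and 1.06 for Me1. All 7 calls were lost when either IWAT 1 or IWAT 2 was left out, when the calls over all genes fell from 2082 to 304 and 55, and 5 of the 7 with the replicate number as a block.

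**Figure D4:**
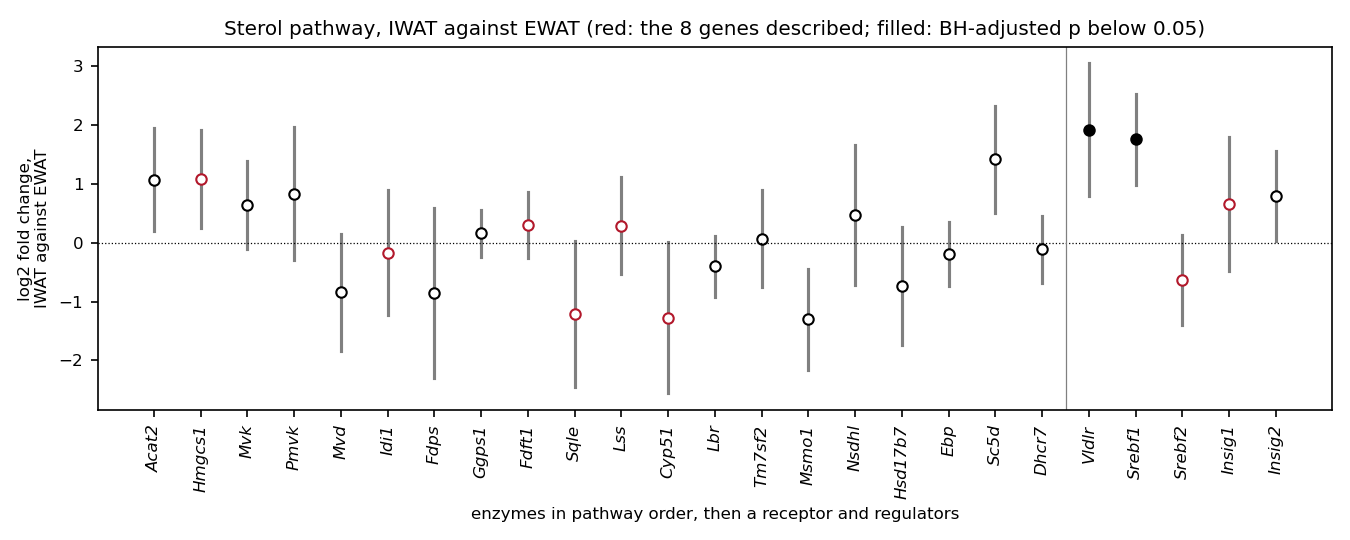
Sterol pathway genes, inguinal against epididymal fat. The horizontal axis lists enzymes in the order of their step, then Vldlr and regulators; the vertical axis is the log2 fold change from edgeR with its 95% interval, red points are the 8 genes described here, black points are other genes, and filled points have an adjusted p below 0.05, as Vldlr at 1.93 and Srebf1 at 1.76 do.

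Likeness to the set was measured as the correlation, over the 12 libraries, of a gene's log2 CPM with the mean z-score of the 8 genes. The 5 highest outside the set were Mrfap1 (0.958), Sephs1 (0.939), Ddx1 (0.927), Blmh (0.917) and Vps36 (0.912), none of which is a sterol enzyme. After depot means were subtracted the 5 highest were Slc35b1 (0.963), Fdps (0.958), Mrfap1 (0.956), Sephs1 (0.954) and Rraga (0.954). Of these Fdps, farnesyl diphosphate synthase, is the enzyme between Idi1 and Fdft1. The z-score itself was highest in IWAT 1 at 1.45 and EWAT 3 at 1.31 and lowest in RWAT 3 at -0.72, so the likeness turns on libraries from several depots.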

How the data were processed

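Total RNA depleted of ribosomal RNA had been sequenced as single-end 75 bp reads, per the labels' protocols. Per the submitters' processing notes the tools were Trimmomatic 0.36, RSEM 1.3.0 and DESeq2 1.10.1 on GRCm38.p4, and the aligner and annotation release are not given in the sources used here. Per the file headers, the deposited values are RSEM expected counts per gene and TPM, with effective length, gene length and the posterior standard deviation of the count.

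Expected counts were rounded, genes filtered with filterByExpr (minimum count 10), and libraries scaled by TMM (factors 0.846 to 1.14). Depots were compared with edgeR 4.0.16 (quasi-likelihood test, common biological coefficient of variation 0.385) in R 4.3.3, with Benjamini-Hochberg adjustment over all genes tested. limma 3.58.1 (voom) and DESeq2 1.42.0 were alternatives, beside other scalings, filters, a length offset, left-out libraries and a replicate block. The scripts were tested on simulated data. The z-score and log2 CPM used a prior count of 2.

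The 8 genes and all gene lists were chosen with earlier results of these data known. Some genes of the sterol synthesis and uptake lists are not reported here and enter no count of these lists. Genes named from a list were those past the threshold in the test among the depots or in a pair, or otherwise the 3 with the smallest p among the depots. Stard4, Hsd17b7, Fads1, Fads2, Scd1, Pnpla3 and Adipoq were named after their values had been seen. Same-numbered libraries deviated together in every pair only for BAT and RWAT (correlations 0.182 to 0.429, 3 of 3 pairs). For EWAT the correlations were negative in every pair with BAT (-0.359 to -0.048) and with RWAT (-0.341 to -0.246). The labels give no pairing, so it is not known whether a number marks 1 animal. A fit of only BAT and RWAT with the block was therefore added.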

Additional observations from a re-analysis of the deposited data

Results flagged for a closer look

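Over the 9 white libraries, 2 of 16 checks for a single high or low library passed Dixon's critical value of 0.493. Chance flags about 1 in 20 groups at that value only where the values are normally distributed. The checks used untransformed CPM and were not run on log2 CPM, so that rate need not hold here. Hmgcs1 in IWAT 1 stood at 603 CPM, with a gap to the next library of 0.605 of the whole range. On the TPM scale it did not stand apart, at 157.15 in IWAT 1 and 151.36 in IWAT 2. Insig1 in IWAT 1 stood at 529 CPM, with a gap of 0.629 of the range. Both flags fall on the same library, and the 9 libraries come from 3 depots, so a difference between depots enters the range.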

How the results depend on the processing

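The count of the 8 genes past the threshold stayed at 0 in 198 of 199 readings, a reading being 1 alternative fit in 1 of the 8 comparisons. The readings share fits and libraries and are not independent. Many of them called almost no gene at all, as RWAT against IWAT did with the main settings (0% of all genes). There a count of 0 says little about the 8 genes. The exception was DESeq2 for IWAT against EWAT, with 1 gene (Hmgcs1), where 20.0% of all genes were called. Leaving out 1 library at a time gave 0 to 0 in every comparison. For IWAT against EWAT these fits called 0.284% (without IWAT 2) to 14.1% (without BAT 2) of all genes. With the replicate block the count was 0 in every comparison, and 5.62% of all genes were called for IWAT against EWAT. It was also 0 in the fit of BAT and RWAT alone, which called 0% of all genes. The block therefore changed no call of the 8 genes. Of 1592 single-gene values 1591 stayed short of the threshold, with the same limit. Of 175 medians 173 moved by less than the spread within depots, an SD of 0.602 on the log2 scale that exceeds every median itself, so changes of sign fall within it. The exceptions, both without IWAT 1, were 0.30 for BAT against IWAT and -0.55 for IWAT against EWAT. Over the alternatives the median reached from -0.69 to 0.15 for RWAT against IWAT, from -0.18 to 0.35 for BAT against RWAT, from -0.59 to 0.14 for BAT against EWAT, from -0.60 to 0.02 for RWAT against EWAT and from -0.49 to 0.05 for BAT against white, so no median kept its sign in all of them.

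Of the 7 calls among other pathway genes, beside the losses given above, 6 were lost without EWAT 1, 6 without EWAT 3, 4 without RWAT 1 and 4 with limma-voom. Without IWAT 2 the differences were about as large, such as 1.83 for Srebf1, 2.02 for Vldlr and -1.90 for Soat1. The fit without the 4 libraries of lowest adipocyte level, chosen after seeing the data, has 1 EWAT library and called 29 genes in all for IWAT against EWAT and none of the 7. The cause was not tested. With 3 libraries per depot the precision is limited: the intervals of Sqle and Cyp51 span more than 2 log2 units.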
